A study of Mus musculus with 32 samples.

Results

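Stroma with high Ptgs2 was compared with stroma with low Ptgs2. Ptgs2 encodes cyclooxygenase-2, the inducible enzyme that starts the conversion of arachidonic acid to prostaglandins. The comparison uses the 16 stroma arrays of a series of 32 one-colour arrays. The 5 arrays with the highest Ptgs2 level formed the high class and the 5 with the lowest formed the low class. The other 6 lay between them. Each level is a log2 intensity relative to the 75th percentile of its array, so that 0 is the 75th percentile, and Ptgs2 had 1 probe. The classes were cut from a measured value and are not an assigned condition. The Ptgs2 difference between them is therefore given as a description with no test, and a p-value of another gene measures only its association with the Ptgs2 level across these arrays.

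The mice carried MCG 101 cells, a transplantable mouse sarcoma, as implanted tumors. Hosts were either wild type or EP2 knockout, EP2 being a receptor for prostaglandin E2 encoded by Ptger2. Stroma and tumor were each profiled from both kinds of host, which gives 4 groups of 8 arrays, from hosts labelled female or male. The age of the hosts, the size of the tumors and the way stroma was separated from tumor are not given in the sources used here. The labels do not say whether the tumor cells themselves had the gene for EP2. The genotype of the host does not alter the genes that implanted cells carry, and whether it alters their expression was not tested. The labels do not say that arrays came from separate mice, so p-values measure the spread between these samples.

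In the prostanoid pathway a phospholipase A2 releases arachidonic acid from membranes, a cyclooxygenase turns it into prostaglandin H2, and terminal synthases turn that into prostaglandin E2 and its relatives. These act on G protein-coupled receptors of neighbouring cells and are then taken up and oxidised. Ptgs2 is low in most resting tissue and is induced by cytokines, growth factors and mitogens, in tumor cells, fibroblasts, endothelium and macrophages.

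Ptgs2 spanned at least 8.97 log2 units over the 16 stroma arrays. In the high class it was 3.21 in wild-type stroma 65, 1.5 in wild-type stroma 82, 1.03 in wild-type stroma 1, 0.89 in wild-type stroma 45 and 0.56 in wild-type stroma 68. In the low class it was -2.32 in knockout stroma 95, -2.59 in knockout stroma 51, -3.47 in knockout stroma 59B, -3.55 in knockout stroma 49 and -5.76 in wild-type stroma 9. The last of these was not well above background, so its level is only an upper bound. The class means were 1.44 ± 1.05 (SD, n = 5) and -3.54 ± 1.35 (SD, n = 5), a difference of at least 4.98. At the upper edge, wild-type stroma 68 at 0.56 was in the high class and wild-type stroma 5 at 0.27 was not. At the lower edge, knockout stroma 95 at -2.32 was in the low class and knockout stroma 99 at -2.12 was not. Neither edge fell in a wide gap, and the 6 arrays between the classes ran from -2.12 to 0.27.

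**Figure D1:**
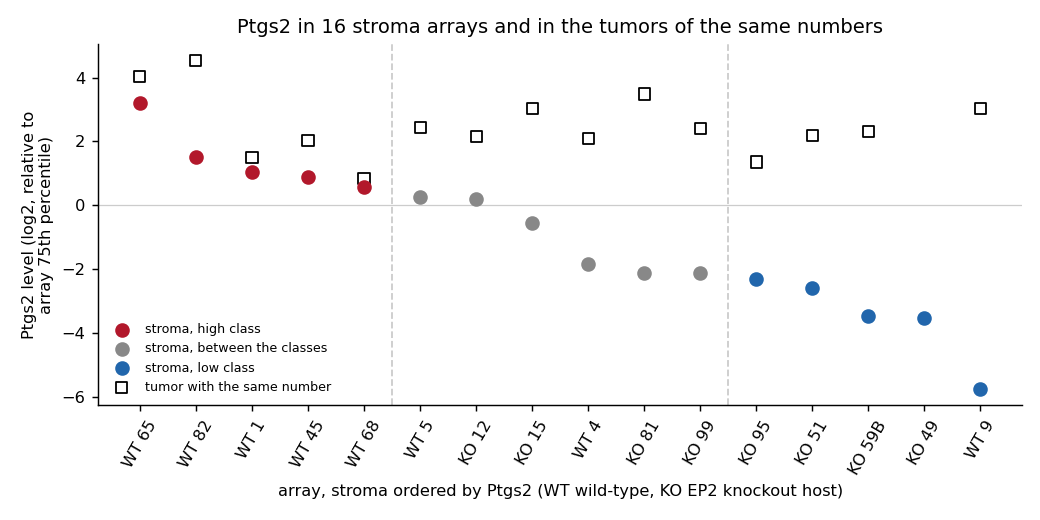
Ptgs2 level (y axis, log2 relative to the 75th percentile of the array) in the 16 stroma arrays, ordered from high to low (x axis), with the tumor of the same number as an open square. Stroma falls from 3.21 to -5.76, while the tumors run from 0.84 to 4.54 and do not follow the order of the stroma.

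The classes differ in more than Ptgs2. All 5 high arrays are wild type, and the low class has 4 knockout arrays and 1 wild-type array, so class and host genotype can be told apart only through wild-type stroma 9 and the middle arrays. Each class has 3 arrays labelled female and 2 labelled male, but 2 low arrays (wild-type stroma 9 and knockout stroma 95) and 1 middle array (knockout stroma 99) had Xist above the Y-linked genes against a male label. All 5 low arrays and 3 of the high arrays had Xist above the Y-linked genes. Of the 5 sex-linked genes listed only 2, Xist and Eif2s3y, met the conditions for testing in stroma. Between 47.7% and 62.5% of probes were well above background in stroma, and no spot was saturated. On the first principal component wild-type stroma 65 and 82 scored -68.2 and -113, among the tumors (-160 to -32.3), while scores of the remaining 14 stroma arrays were 21.8 to 225. The number of arrays limits the precision.

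Of 26544 genes tested besides Ptgs2, 10697 differed between the classes at an adjusted p under 0.05 (limma), which is 40.3%. Of these 5318 were higher (20%) and 5379 lower (20.3%) in the high class. The median difference over all genes tested was -0.16. The rank correlation with Ptgs2 over 16 arrays (rho) passed for 11365 genes (42.8%), 5532 positive (20.8%) and 5833 negative (22%). Wild-type stroma 65, wild-type stroma 82 and knockout stroma 59B each carried much of this number: 6432, 6781 and 6813 genes passed without them, and 2817 (10.6%) without 65 and 82 together. Without wild-type stroma 9 and knockout stroma 95 the number was 8100 (30.5%). With the Ptgs2 level as a number over all 16 arrays and genotype as a covariate 8652 genes passed (32.6%). Within the 8 wild-type arrays alone 3087 passed (11.6%), 2279 with a positive slope (8.59%) and 808 with a negative one (3.04%). Within the 8 knockout arrays alone 0 passed, and 5380 genes had an unadjusted p under 0.05. In the 8 arrays of each host genotype, the plain comparison of knockout with wild-type stroma called 0 genes by limma, with 8109 (30.5%) at an unadjusted p under 0.05.

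Levels in tumor moved with these differences. Of the 5318 genes that were higher in the high class, 5293 (99.5%) had a higher mean in the 16 tumor arrays than in the 6 middle stroma arrays, which are in neither class. Of the 5379 lower genes 210 did (3.90%), against 53.8% of all genes tested. In bulk tissue fewer cells of a type and less RNA per cell cannot be told apart. What part the amount of tumor tissue in the stroma had in the differences was not tested.

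The other genes of the prostanoid and leukotriene pathways did not move as a group with Ptgs2. Of 40 genes listed 37 were tested. Of these 5 were higher, 5 were lower and 27 did not pass, against 40.3% of all genes passing, and their median difference was -0.48 (all genes -0.16). Those that did not pass ran from -1.86 to 0.40.

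Among the enzymes of synthesis, Pla2g4a, the cytosolic phospholipase A2 that supplies arachidonic acid to cyclooxygenases, was the one higher gene of 15. It was 2.44, 1.99, 0.71, 1.48 and 1.32 in wild-type stroma 65, 82, 1, 45 and 68, and -0.49, -0.28, -1.51, -0.30 and -2.73 in knockout stroma 95, 51, 59B and 49 and wild-type stroma 9. Every high array lay above every low one, and the difference was 2.65 (SE 0.51, adjusted p = 0.00443). Its level rose with Ptgs2 in stroma (rho 0.89) and also in tumor (rho 0.79, adjusted p = 0.0382), where the arrays did not enter the choice of classes. Without wild-type stroma 65 and 82 the difference was 2.24 (adjusted p = 0.0434).

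Ptgs1, the constitutive cyclooxygenase, fell. In the same array order it was -1.62, -2.71, -0.77, -1.56 and -0.80 in the high class and -0.12, 0.04, -0.04, 0.00 and -1.11 in the low class. The classes overlapped, because wild-type stroma 9 was below 2 high arrays. The difference was -1.25 (SE 0.39, adjusted p = 0.0288), and it did not pass without 65 and 82 (-0.80, adjusted p = 0.143). Ptges, the inducible terminal synthase that makes prostaglandin E2, did not follow Ptgs2 on its probe with the highest mean in stroma. On that probe its means were 4.09 ± 0.13 and 4.13 ± 0.35 (SD, n = 5 each), with a difference of -0.04 (SE 0.20, adjusted p = 0.885). The averaging of all Ptges probes gave 1.88 instead. Its probes disagree, so whether Ptges follows Ptgs2 is not settled here. Pla2g7, a phospholipase that breaks down platelet-activating factor, fell by 1.73 (SE 0.44, adjusted p = 0.0144), and all 5 high arrays lay below all 5 low ones. Cbr1, a carbonyl reductase that can act on prostaglandin E2, fell by 1.95 (SE 0.63, adjusted p = 0.0335), with -0.64 and -1.20 in wild-type stroma 65 and 82 and 2.55, 1.56 and 0.60 in the other 3 high arrays. Without 65 and 82 that difference was -0.95 (adjusted p = 0.159).

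Of the 6 genes of transport and breakdown 2 rose and 1 fell, where 20% of all genes rose and 20.3% fell. Cbr3, a carbonyl reductase related to Cbr1, rose by 1.86 (SE 0.33, adjusted p = 0.00314). It was 2.55 to 3.76 in the high class and 0.55 to 1.78 in the low class, with no overlap. Ptgr1, a reductase that inactivates prostaglandins and leukotriene B4, was higher by 1.55 (SE 0.57, adjusted p = 0.0493). Its highest low array, knockout stroma 51 at -0.03, lay above wild-type stroma 1 at -0.15, and the call was lost without 65 and 82 (adjusted p = 0.215). Abcc4, an efflux pump that exports prostaglandins, had a difference of -0.81 (SE 0.24, adjusted p = 0.0248) and did not pass without 65 and 82 (-0.83, adjusted p = 0.0970). Hpgd, which encodes the main enzyme of prostaglandin oxidation, had means of -3.51 ± 1.53 and -2.37 ± 0.19 (SD, n = 5 each) and did not pass (-1.14, adjusted p = 0.157).

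Among 8 receptors tested, Ptgfr, the receptor of prostaglandin F2alpha, was the one that rose, where 20% of all genes did. It was -0.24, 0.67, -0.67, -1.58 and -1.55 in the high class and -2.46, -3.41, -3.93, -3.65 and -3.08 in the low class. No array overlapped, and the difference was 2.63 (SE 0.45, adjusted p = 0.00283; 2.04, adjusted p = 0.0172 without 65 and 82). Ptgir, the prostacyclin receptor, fell by 0.87 (SE 0.27, adjusted p = 0.0296), with overlapping classes, and was at -0.98 without 65 and 82, where it did not pass (adjusted p = 0.0882). The 2 Gs-coupled receptors of prostaglandin E2 did not pass. Ptger2, the gene deleted in the knockout hosts, was -4.81 ± 1.10 and -4.17 ± 0.63 (SD, n = 5 each; adjusted p = 0.333) and was well above background in 3 high and 5 low arrays. Ptger4 was 0.23 ± 0.59 and 0.48 ± 0.62 (adjusted p = 0.599). Although 4 of the 5 low arrays are labelled knockout, the low class was not the lower one, and where the Ptger2 probe lies relative to the deleted part is not known here, so this gene does not check the labels.

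In the leukotriene branch 1 of 8 genes tested passed, against 40.3% of all genes. Lta4h, the hydrolase that makes leukotriene B4, rose by 1.07 (SE 0.21, adjusted p = 0.00491). It was 2.87 to 3.79 in the high class and 2.15 to 2.62 in the low class.

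**Figure D2:**
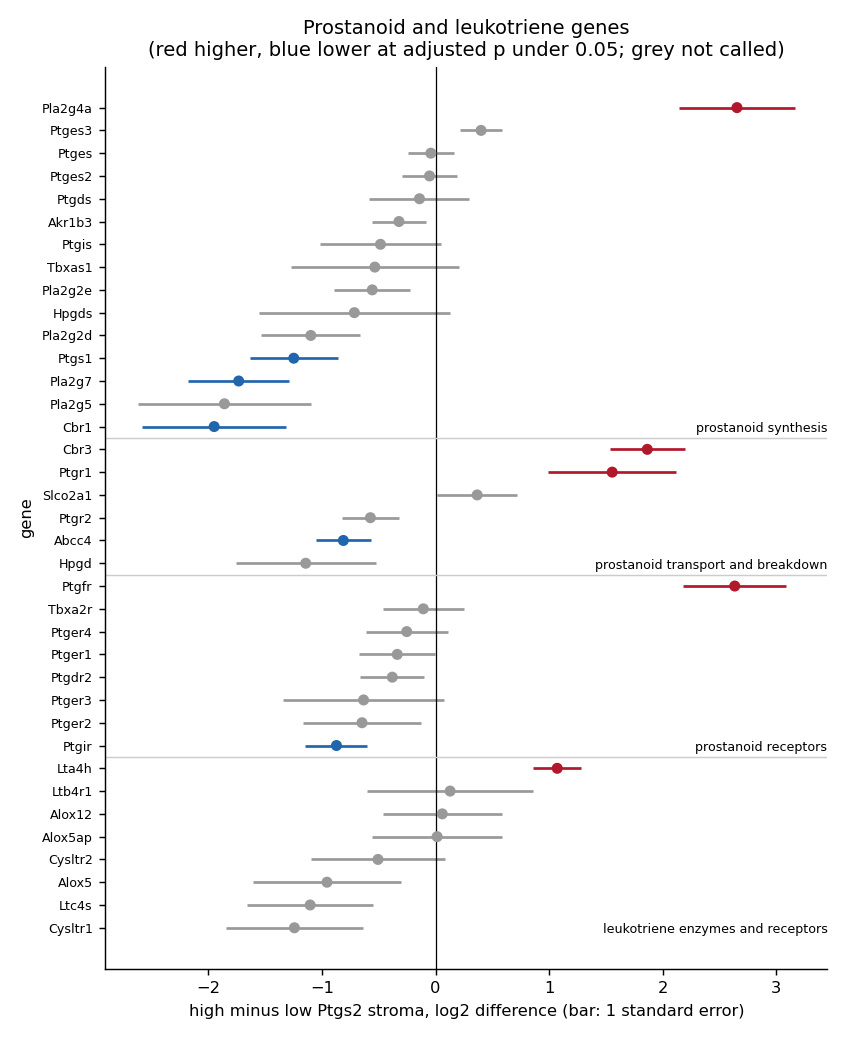
High minus low difference of each tested prostanoid and leukotriene gene (x axis, log2, bar 1 standard error), grouped by role (y axis). Pla2g4a (2.65), Ptgfr (2.63), Cbr3, Ptgr1 and Lta4h lie to the right, Cbr1, Pla2g7, Ptgs1, Ptgir and Abcc4 to the left, and 27 genes do not pass.

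The genes that followed Ptgs2 most closely across the stroma included ligands of growth factor and cytokine receptors (Ereg and Il11), beside genes of mitosis and replication given below. Ereg, which encodes the epidermal growth factor receptor ligand epiregulin, was 2.05, 0.87, 0.26, -0.63 and -0.28 in wild-type stroma 65, 82, 1, 45 and 68. It was -2.57, -4.33, -7.29, -5.45 and -7.60 in knockout stroma 95, 51, 59B and 49 and wild-type stroma 9. No high array overlapped a low one, and the low class was the more widely spread. The difference was 5.90 (SE 0.93, adjusted p = 0.00188), and 3 of the 5 low arrays were well above background. Over all 16 stroma arrays rho was 0.96 (p = 1e-05, the smallest these permutations can give, adjusted p = 0.000649) and Pearson's r was 0.96 (p = 1e-05, adjusted p = 5.47e-05 over 186 genes). Without the 2 arrays farthest from the median, wild-type stroma 9 and 65, r was 0.95. Ereg was named for its rise and rho in these same arrays, and the 186 genes are a small part of the 26544 tested. The p-values of r in stroma are therefore not separate support.

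Ereg and Ptgs2 also rose together in tumor, in arrays that played no part in forming the classes. Ereg in tumor ran from -0.04 through a median of 1.19 to 3.72. Its rho with tumor Ptgs2 over 16 arrays was 0.94 (p = 1e-05, adjusted p = 0.0283) and r was 0.97 (p = 1e-05, adjusted p = 0.000432 over 173 genes), and r was 0.94 without wild-type tumor 65 and 82. The adjustment of r covers 173 genes and that of rho all 25474 tested in tumor, so the 2 adjusted p-values are not alike. Ereg had a rho of 0.98 within the 8 wild-type stroma arrays and of 0.81 within the 8 knockout arrays. Of the named genes that passed with a positive rho in both tissues, Ereg had the highest rho in tumor.

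Areg, the related ligand amphiregulin, was 0.64, -0.63, -1.60, -1.40 and -1.54 in the high class and -4.23, -4.63, -7.37, -5.20 and -7.75 in the low class. The classes did not overlap, and the difference was 4.93 (SE 0.75, adjusted p = 0.00162). In knockout stroma 59B and wild-type stroma 9 Areg lay near Ptgdr (-7.41 and -7.77), a receptor gene too dim to be tested. The size of the Areg difference is therefore as fitted. Areg had a rho of 0.92 in stroma and 0.77 in tumor (adjusted p = 0.0494). Hbegf, another ligand of this receptor, rose by 1.48 (SE 0.32, adjusted p = 0.00709; adjusted p = 0.0517 without 65 and 82), with 1 high array, wild-type stroma 1 at 0.50, below wild-type stroma 9 at 0.58. Of 5 genes tested on the list of ligands of this receptor, these 3 rose, and Egf (-3.70, adjusted p = 0.0212) and the receptor Egfr (-1.53, adjusted p = 0.0382, named because it passed) fell. Without 65 and 82 Ereg and Areg passed and the other 3 did not. Among all genes tested 20% rose and 20.3% fell, and 8% and 2.61% did so without 65 and 82.

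Il11, a cytokine of the interleukin-6 family that acts on fibroblasts, was 1.14, -0.29, 0.01, -2.31 and -2.74 in the high class and -3.61, -4.10, -4.72, -4.63 and -6.09 in the low class. All high arrays lay above all low ones, although wild-type stroma 68 was within 1 unit of knockout stroma 95. The difference was 3.79 (SE 0.75, adjusted p = 0.00507). Its rho was 0.96 over 16 stroma arrays, 0.86 in wild-type and 0.98 in knockout stroma, and 0.81 in tumor (adjusted p = 0.0358). Plaur, the receptor of urokinase, was 3.92, 3.19, 2.20, 2.55 and 2.97 against 0.34, 0.92, -0.48, 0.41 and -1.48. It rose by 3.03 (SE 0.47, adjusted p = 0.00178) with no overlap, and its rho was 0.89 in stroma and 0.82 in tumor (adjusted p = 0.0300).

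**Figure D3:**
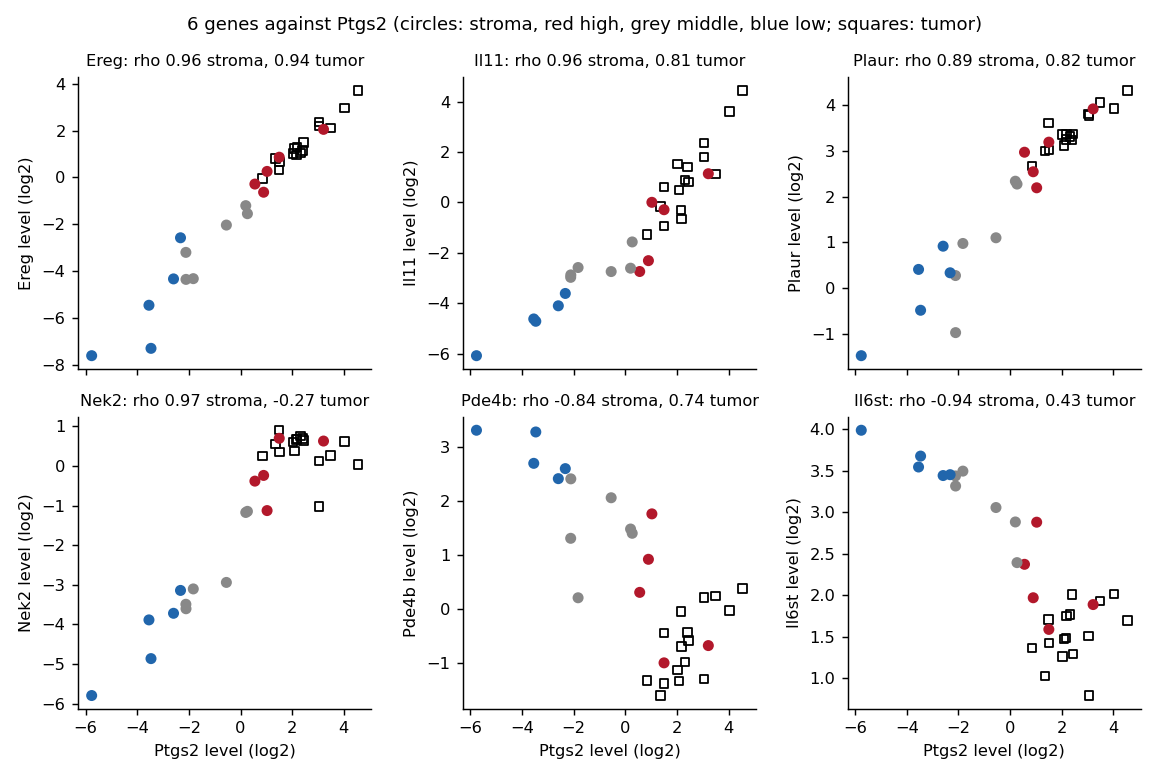
Level of 6 genes (y axes, log2 relative to the 75th percentile) against Ptgs2 (x axes, same unit) in 16 stroma arrays (circles, red high, grey between, blue low) and 16 tumor arrays (squares). Ereg, Il11 and Plaur rise with Ptgs2 in both tissues, Nek2 rises in stroma and not in tumor (rho 0.97 and -0.27), and Pde4b and Il6st fall in stroma (rho -0.84 and -0.94).

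The tumor correlations of these genes were not carried by wild-type tumor 65 and 82 alone. Over 16 tumors r was 0.91 for Pla2g4a, 0.81 for Areg, 0.89 for Il11 and 0.91 for Plaur (permutation tests, adjusted p = 0.000432, 0.00323, 0.000692 and 0.000432 over 173 genes). Without these 2 tumors r was 0.80, 0.63, 0.75 and 0.86 in the same order. The adjustment covers 173 genes and not the 25474 tested for rho in tumor.

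Few genes passed in both tissues. Of 24214 genes tested in both, 10329 passed in stroma and 429 in tumor, and 209 passed in both, which is 2.02% of the stroma genes and 48.7% of the tumor genes. These shares are near those of all genes, of which 42.7% passed in stroma and 1.77% in tumor. Of the 209, 30 were positive in both, 54 were negative in both, 112 were positive in stroma and negative in tumor, and 13 were the reverse. Across genes, which are not independent replicates, the correlation of the 2 sets of rho was -0.05. The 24 named genes among the 30, listed here because they passed and so chosen after their values were seen, were Ereg, Cxcl2, Gpr176, Tnfsf11, Slc2a3, Has2, Inhba, Plaur, Il1rl1, Gng8, Coch, Gdnf, Ttc39b, Pfkp, Il11, Itprip, Pla2g4a, Gprc5a, Nt5e, Rnf149, Cpne7, Fstl3, Areg and Pdpn. They include secreted factors (Inhba, which encodes activin A, Tnfsf11, Gdnf), a glucose transporter (Slc2a3), hyaluronan synthase (Has2) and the surface nucleotidase Nt5e.

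The start regions of Ptgs2 and of genes that followed it in both tissues are shown from RefSeq (GRCm38.p6), from 250 bases before to 50 bases after the annotated start, so that a reader can see which known elements they hold. They were chosen for showing matches. Il11 and Pla2g4a, which followed Ptgs2 too, have 2 annotated starts each and are not printed: 1 Il11 window held an AP-1 match and the other none, and the Pla2g4a windows held C/EBP or TATA matches only. Capitals mark matches, on either strand, to the cAMP response element TGACGTCA or its core TGACG, the E-box CACGTG, the AP-1 element TGANTCA, an NF-kB element, the C/EBP element TTNNGNAA and the TATA element TATAAA, and matches may overlap. Ptgs2 lies at chr1:150099781-150100080 on the plus strand, Areg at chr5:91139349-91139648 plus, Cxcl2 at chr5:90903649-90903948 plus and Plaur at chr7:24462233-24462532 plus.
Ptgs2: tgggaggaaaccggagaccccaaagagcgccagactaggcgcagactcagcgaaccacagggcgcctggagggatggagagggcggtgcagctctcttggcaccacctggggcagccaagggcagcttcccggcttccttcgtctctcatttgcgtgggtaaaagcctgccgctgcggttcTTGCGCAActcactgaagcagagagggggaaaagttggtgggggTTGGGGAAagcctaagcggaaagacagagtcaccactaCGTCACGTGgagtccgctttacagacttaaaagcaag
Areg: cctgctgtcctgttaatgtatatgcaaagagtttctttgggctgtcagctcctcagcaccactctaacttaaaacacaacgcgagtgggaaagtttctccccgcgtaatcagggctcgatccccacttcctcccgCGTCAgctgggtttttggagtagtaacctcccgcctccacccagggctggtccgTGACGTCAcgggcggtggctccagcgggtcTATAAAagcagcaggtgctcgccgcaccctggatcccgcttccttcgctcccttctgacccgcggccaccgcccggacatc
Cxcl2: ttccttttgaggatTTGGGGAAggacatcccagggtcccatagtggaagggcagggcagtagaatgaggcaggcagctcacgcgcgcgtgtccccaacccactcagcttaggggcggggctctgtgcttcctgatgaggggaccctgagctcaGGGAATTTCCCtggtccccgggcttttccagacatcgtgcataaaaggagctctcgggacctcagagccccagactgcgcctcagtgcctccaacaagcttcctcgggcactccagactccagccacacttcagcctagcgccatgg
Plaur: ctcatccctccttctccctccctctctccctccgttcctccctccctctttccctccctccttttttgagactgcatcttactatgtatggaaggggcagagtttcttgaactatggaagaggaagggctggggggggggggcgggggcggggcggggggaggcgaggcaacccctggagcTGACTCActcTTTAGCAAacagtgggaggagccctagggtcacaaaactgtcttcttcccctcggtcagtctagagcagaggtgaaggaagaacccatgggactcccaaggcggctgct
The Ptgs2 window held 2 C/EBP matches (positions -69 and -25 from the start) and, past the start, a joined cAMP core (position 14) and E-box (position 17). Areg held a full cAMP response element at -61, found in 1.79% of 32851 windows of this length, another core at -115 and a TATA match at -31. Cxcl2 held an NF-kB match at -97, found in 1.47% of windows, and a C/EBP match at -236. Plaur held an AP-1 match at -69, found in 7.81% of windows, and a C/EBP match at -59. The cAMP core is in 20.8% of windows, the E-box in 7.15%, the C/EBP element in 40.7% and the TATA element in 13.6%. These are matches of letters in 1 window, and none of the 4 windows held all elements.

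Inflammatory genes rose in shares near those of all genes, of which 20% rose. Il1rap, the shared subunit of the interleukin-1 and interleukin-33 receptors, was 2.58, 2.71, 1.10, 1.16 and 1.69 in the high class, while every low array was at or below -0.11. It rose by 2.97 (SE 0.45, adjusted p = 0.00161) with no overlap. Of 10 genes tested on the interleukin-1 list 3 rose and 0 fell, with Il1rl1 (1.85) and Il18rap (2.11) beside Il1rap, and without 65 and 82 1 passed. Interleukin-1 beta itself, an inducer of Ptgs2, did not differ beyond its spread: Il1b, named after its values were seen, was 0.09 ± 1.32 and -0.97 ± 2.15 (SD, n = 5 each, adjusted p = 0.414).

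Of 7 genes for neutrophil chemokines and their receptors 2 rose (20% of all genes did), both of them ligands. Cxcl1, a ligand of Cxcr2, was 3.35, 1.38, 1.98, 1.06 and 0.50 against -1.46, 0.82, 0.27, -0.15 and -2.06. Wild-type stroma 68 lay below knockout stroma 51, and the difference of 2.17 (SE 0.65, adjusted p = 0.0253) was 1.70 (adjusted p = 0.127) without 65 and 82. Cxcl3 was well above background in 3 of 5 high and 0 of 5 low arrays, so that it was at least 2.01-fold higher, with measured means of -4.36 ± 1.13 and -7.62 ± 0.30 (adjusted p = 0.00145). For such a bound a low value is raised to the dimmest signal on that array that still counts as well above background. Cxcl2 had a difference of 1.33 and did not pass (adjusted p = 0.0756), while its rho passed in stroma (0.65) and in tumor (0.92).

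On the list of interleukin-6 family and TNF cytokines 2 of 12 rose and 3 fell, near the shares of all genes (20% and 20.3%). Clcf1 (3.35) and Il11 rose. The 3 that fell encode receptor chains, Osmr (-1.20), Lifr (-2.46, named because it passed) and Il6st, the signalling chain gp130 that the family shares. Il6st had the lowest rho with Ptgs2 of all named genes in stroma (-0.94). It was 1.89, 1.59, 2.88, 1.97 and 2.37 in the high class and 3.45, 3.44, 3.67, 3.54 and 3.98 in the low class, with no overlap, and fell by 1.48 (SE 0.25, adjusted p = 0.00285). In tumor its rho was 0.43 (adjusted p = 0.352). Il6 was at -1.65 ± 1.44 and -1.38 ± 1.61 (SD, n = 5 each, adjusted p = 0.824, named after its values were seen).

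Immediate early genes and genes that respond to cAMP went both ways. Both lists hold Fosb, Nr4a1, Nr4a2 and Nr4a3, so the rise of Nr4a2 and the fall of Nr4a1 count in each. Of 18 immediate early genes 3 rose and 2 fell, not above the shares of all genes (20% and 20.3%). Fosl1, a subunit of the AP-1 factor, rose by 5.04 (SE 0.92, adjusted p = 0.00373), from -2.19, -3.02, -2.20, -3.69 and -7.56 to 2.16, 1.70, 0.33, 1.35 and 1.01. The level of -7.56 in wild-type stroma 9 lay near that of the dim gene Ptgdr there (-7.77), so the difference is as fitted. Myc, a growth-promoting transcription factor, rose by 2.61 (SE 0.30, adjusted p = 0.00105). It was 2.67 to 4.16 in the high class and 0.75 to 1.64 in the low class, and both passed without 65 and 82. Of 12 cAMP-responsive genes 2 rose, Areg and Nr4a2 (1.70), and 5 fell, and Nr4a2 did not pass without 65 and 82 (adjusted p = 0.154). Pde4b, a phosphodiesterase that degrades cAMP and is itself induced by it, was -0.68, -0.99, 1.76, 0.92 and 0.31 in the high class and 2.60, 2.41, 3.28, 2.70 and 3.31 in the low class. It fell by 2.59 (SE 0.49, adjusted p = 0.00425), and the classes did not overlap. Its rho with Ptgs2 was -0.84 in stroma and 0.74 in tumor (adjusted p = 0.0630), of opposite sign.

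Genes of the cell cycle were the list with the highest median difference. All 17 listed genes rose, where 20% of all genes did, with differences of 1.89 to 4.87 and a median of 4.23. In all 17 every high array lay above every low one, which was so for 15.1% of all genes tested. Without 65 and 82 10 of 17 passed, with a median of 3.97. With Ptgs2 as a number over 16 arrays and genotype as a covariate 17 passed, and with Ptgs2 as a number in wild-type stroma alone 16 passed. Their mean level was 3.49, 3.54, 2.04, 2.82 and 2.80 in the high class and 0.51, -0.28, -1.39, -0.07 and -4.14 in the low class, beside 2.68 to 3.68 in tumor. Within slides that held both classes it differed by 3.77 (slide 2), 3.44 (slide 5) and 2.67 (slide 6). These slides set wild-type stroma 65 against knockout stroma 51, wild-type stroma 1 against knockout stroma 59B, and wild-type stroma 82 and 45 against knockout stroma 95. Such differences rest on single arrays and go with genotype too. The median rho of the cell cycle genes with Ptgs2 was 0.92 in stroma and -0.45 in tumor, where 2 of 17 passed as negative and 0 as positive.

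Nek2, a kinase of the centrosome, had with Rnf24 the highest rho of all named genes in stroma (0.97 each). It was 0.63, 0.70, -1.12, -0.24 and -0.38 against -3.14, -3.72, -4.86, -3.89 and -5.80, a difference of 4.20 (SE 0.53, adjusted p = 0.00107) with no overlap. In tumor its rho was -0.27. Pold1, the catalytic subunit of DNA polymerase delta, was 3.84, 3.97, 2.78, 3.38 and 3.27 against 1.46, 1.46, 1.15, 1.29 and 1.08, a rise of 2.16 (SE 0.24, adjusted p = 0.00104). Spdl1 (spindle), Polq (DNA repair polymerase) and Dbf4 (activator of replication origins) rose by 4.35, 2.57 and 4.25, each with rho of 0.96 or 0.97. Aurka and Cdk1, kinases of mitosis, rose by 2.64 and 4.83. Dtnb, a dystrobrevin, and S100a3, a calcium-binding protein, completed the 10 highest rho together with Il11 and Ereg. Dtnb rose by 3.47, and S100a3, well above background in 5 high and 0 low arrays, was at least 4.79-fold higher (means -3.09 ± 0.76 and -5.63 ± 0.35, adjusted p = 0.00123). Each of these genes passed without 65 and 82. Tested genes needed signal on at least 5 stroma arrays, which the 5 high arrays of S100a3 met by themselves. That favours a rise, so the p-value of S100a3 is not separate support.

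The largest rises with a gene symbol included Rhox5, Crabp1, Dnajc22, Gm10439, Car12, Ereg, Crhbp, Lrp2 and Gap43. Except for Crabp1, not all 5 low arrays were well above background for these genes, so the order of their differences is not read and the differences are as fitted. They ran from 5.79 (Gap43, a growth cone protein) to 6.90 (Rhox5, a homeobox gene of the reproductive tract). Rhox5 was 6.62, 6.58, 5.50, 6.66 and 6.38 in the high class and 3.15, 0.94, -1.05, 1.70 and -7.50 in the low class. The high arrays lay close together and the low ones were widely spread, and in tumor Rhox5 ran from 6.12 to 7.37. Without 65 and 82 the difference was 6.73 and did not pass (adjusted p = 0.0714). Crabp1, a retinoic acid-binding protein, was 7.06 to 8.05 against -4.30 to 5.33, and 7.78 to 8.62 in tumor (6.42, adjusted p = 0.00819, and 0.0596 without 65 and 82). Car12, a membrane carbonic anhydrase, was 1.33, 0.92, -0.36, 0.17 and 0.32 against -3.06, -4.76, -7.15, -4.71 and -7.48 (5.91, SE 0.78, adjusted p = 0.0011). Crhbp, a binding protein of corticotropin-releasing hormone, was well above background in 5 high and 0 low arrays and at least 19.2-fold higher (means -1.11 ± 1.74 and -6.98 ± 0.92, adjusted p = 0.0011). Tested genes needed signal on at least 5 stroma arrays, which the 5 high arrays of Crhbp met by themselves. That favours a rise, so its p-value is not separate support. The largest rises were also chosen with signal on all 5 high arrays. Gap43 did not pass without 65 and 82 (adjusted p = 0.0552), and the other 6 of these 9 genes did. For 8 of the 9, rho with Ptgs2 in tumor lay between -0.55 and 0.32 and did not pass, while Ereg did.

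Single matrix and metabolic genes rose. They include Mmp13, the collagenase-3 (5.11, SE 0.61, adjusted p = 0.00105), which was -1.39 to 0.23 against -7.60 to -3.97. Its lowest level lay among those of the dim gene Ptgdr in the low class (-8.13 to -7.10), so the difference is as fitted. Vim, the intermediate filament of mesenchymal cells, rose by 1.86 (SE 0.30, adjusted p = 0.00208). Of 15 enzymes of matrix remodelling 3 rose and 2 fell, and of 16 fibroblast and matrix genes 2 rose and 0 fell, none of these above the shares of all genes (20% higher, 20.3% lower). Of 16 hypoxia and glycolysis genes 6 rose and 5 fell. Slc2a1, the glucose transporter GLUT1, rose by 1.27 (SE 0.22, adjusted p = 0.00273) and Eno1, an enolase, by 2.24. Of 18 ribosomal proteins 10 rose, against 20% of all genes, with a median of 0.53. The median was 0.47 without 65 and 82, where 0 passed.

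The 10 largest falls were Igfn1, Nctc1, Tmem52, Phkg1, Casr, Dusp26, 2310065F04Rik, Lrrc30, Ldb3 and Scn4b, from -5.18 (Igfn1) to -4.29 (Scn4b). They include genes of striated muscle: Igfn1, Ldb3 of the Z disc, Phkg1 of muscle phosphorylase kinase and Scn4b, a sodium channel subunit. Casr, the calcium-sensing receptor, was -7.28 and -6.54 in wild-type stroma 65 and 82 and 0.54, -0.14 and -0.41 in the other 3 high arrays, against 1.23 to 2.21 in the low class. Without 65 and 82 it was -1.67 (adjusted p = 0.0168), and the other 9 did not pass. In wild-type stroma 65 and 82 Casr and Igfn1 (-7.26 and -6.54) lay near the dim gene Ptgdr (-7.50 and -6.76). Their differences are therefore as fitted.

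Markers of muscle, vessels, fat and nerve were lower in the high class. Other lists of host tissue were not: fibroblast and matrix genes had a median of 0.49 and keratinocyte markers one of -0.0003. Of 17 skeletal muscle genes 8 fell and 0 rose, with a median of -3.48, where 20.3% of all genes fell and the median was -0.16. Their mean level was 2.11, 0.53, 7.08, 6.74 and 4.60 in the high class and 6.86 to 8.47 in the low class, so wild-type stroma 1 lay within the low class and 65 and 82 far below it. Without 65 and 82 1 of 17 passed, Ttn, with a median of -1.32. Within slides, between the few arrays named for the cell cycle genes, the difference was -4.80 (slide 2), -0.51 (slide 5) and -3.64 (slide 6). Ttn, the giant sarcomere protein, was 2.08, 0.65, 7.07, 5.35 and 5.11 against 7.12 to 8.07 (-3.48, SE 1.04, adjusted p = 0.0253). No skeletal muscle marker was dim on all arrays of a class. Their summed level (log2 of the summed linear levels) ran from 6.41 to 11.64 in the high and from 11.56 to 12.81 in the low class, and from 1.41 to 10.53 in tumor.

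Endothelial markers depended less on 65 and 82: 10 of 13 fell and 0 rose, with a median of -1.10, and 6 fell without them (-1.08). In 10 of 13 every high array lay below every low one, which was so for 7.58% of all genes. Their summed level was 4.78 to 5.65 in the high class, 5.90 to 6.34 in the low class and 4.30 to 5.57 in tumor, with no overlap of the classes. Within slides, between the same few arrays, their mean differed by -1.02 (slide 2), -0.60 (slide 5) and -1.68 (slide 6). Pecam1, the adhesion molecule CD31, was -2.34 to -1.58 against -1.02 to -0.49 (-1.11, SE 0.22, adjusted p = 0.00569). With the Ptgs2 level as a number and genotype as a covariate 3 of 13 passed. With it as a number in wild-type stroma alone 0 of 13 passed. There 0 skeletal muscle markers and 0 smooth muscle and pericyte markers passed too. Adipocyte markers and Schwann cell and nerve markers had 1 negative slope each, beside 3.04% of all genes. Beside the same 20.3% of all genes, smooth muscle and pericyte markers fell in 5 of 9 (median -1.67, 1 without 65 and 82), adipocyte markers in 6 of 15 (-2.30, 0 without them, and 1.27 higher within slide 5) and Schwann cell and nerve markers in 6 of 10 with 1 rise (-1.82, 2 falls without them). Acta2, smooth muscle actin, was 3.13 to 6.44 against 6.27 to 8.11 (-2.40, adjusted p = 0.0187). Epas1, the hypoxia-inducible factor of endothelium, was 1.99 to 4.53 against 4.78 to 5.74 (-2.02, SE 0.42, adjusted p = 0.00624), with rho of -0.93 in stroma. Ece1, Mindy1 and Phactr2, which with Il6st and Epas1 had the lowest rho, fell by 2.15, 1.14 and 2.02 on the log2 scale. Ece1 and Mindy1 did not pass without 65 and 82 (adjusted p = 0.0555 and 0.0519).

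**Figure D4:**
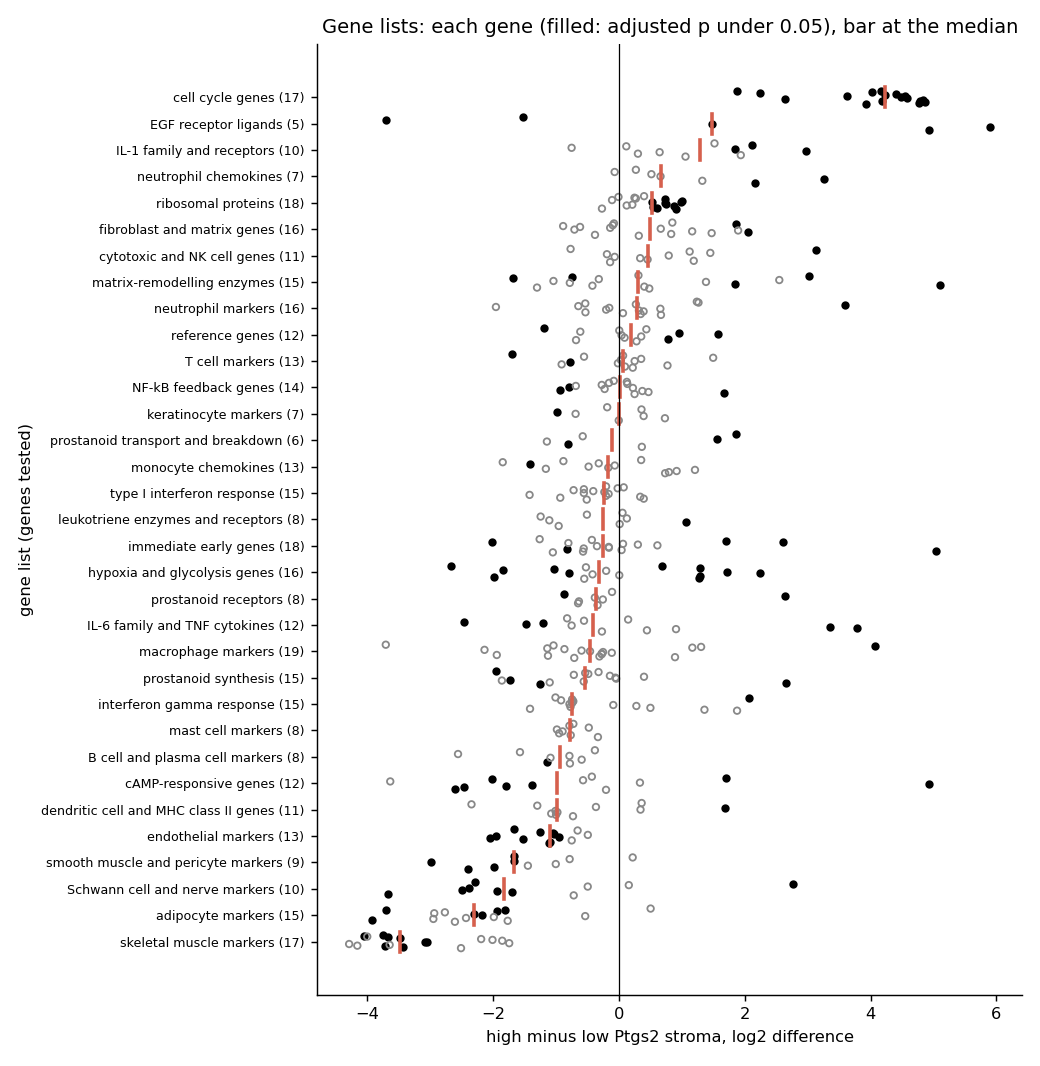
High minus low difference (x axis, log2) of every tested gene on 33 lists (y axis, number tested in brackets), filled where the adjusted p was under 0.05, with a bar at the median of the list. Cell cycle genes (median 4.23) lie apart on the right and skeletal muscle markers (-3.48) on the left, and most immune lists straddle 0.

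Immune lists showed few called genes, against 40.3% of all genes. Of 16 neutrophil markers 1 rose, Mmp9, a gelatinase (3.60, SE 0.72, adjusted p = 0.00556), which was 1.84, 2.69, 1.60, -1.64 and 1.67 against -2.96 to -1.36, so that 1 high array lay within the low class. Of 19 macrophage markers 1 rose, Arg1, an arginase of alternatively activated macrophages (4.06, SE 1.09, adjusted p = 0.0173; adjusted p = 0.110 without 65 and 82). Of 13 T cell markers 0 rose and 2 fell, of 11 cytotoxic and NK cell genes 1 rose, of 11 dendritic cell and MHC class II genes 1 rose, and of 8 B cell and plasma cell markers 1 fell. The last was Cd22, an inhibitory receptor of B cells (-1.14, SE 0.26, adjusted p = 0.0101). Of 15 interferon gamma response genes 1 rose. The 15 type I interferon genes and the 8 mast cell markers had medians of -0.23 and -0.77. The lists' summed levels overlapped between the classes, for example 5.62 to 6.10 against 5.23 to 6.23 for neutrophil and 5.40 to 7.24 against 5.08 to 7.72 for macrophage markers. None of the neutrophil, macrophage or T cell markers tested was dim on all arrays of a class. A difference that does not pass with 5 arrays a class does not show that these levels are alike.

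The tumors with the same numbers as the stroma arrays had not been used to choose the classes. They are read here as tumors of the same hosts, which the labels do not state. Tumor Ptgs2 was 4.03, 4.54, 1.49, 2.02 and 0.84 in wild-type tumor 65, 82, 1, 45 and 68, the partners of the high class, and 1.35, 2.18, 2.31 and 3.04 in knockout tumor 95, 51 and 59B and wild-type tumor 9. Knockout stroma 49 has no tumor array of its number. The means were 2.58 ± 1.62 (SD, n = 5) and 2.22 ± 0.69 (SD, n = 4), and the highest and the lowest tumor both had numbers of the high class. The difference of 0.36 had p = 0.667 in a two-sided exact permutation test over 126 splits, which can give a p as small as 0.0159. Without wild-type tumor 82 it was -0.13. Over 15 pairs rho between stroma and tumor Ptgs2 was 0.05 (permutation p = 0.852) and r was 0.16 (permutation p = 0.573), or 0.08 without the 2 arrays farthest from the median.

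Across 25475 genes in these 9 tumors limma called 0 (0%), with 334 at an unadjusted p under 0.05. With genotype as a covariate, where the difference rests on the single wild-type tumor 9 in the low group, 36 passed. The difference between the classes itself differed between stroma and tumor for 4458 of 27804 genes (16%), of which 3201 (11.5%) were more positive and 1257 (4.52%) more negative in stroma. The classes were cut from stroma Ptgs2, and tumor Ptgs2 differed between them by 0.36, against at least 4.98 in stroma. A gene that follows Ptgs2 alike in both tissues can therefore count here too. Of the 17 cell cycle genes 16 were more positive in stroma, with a median of 4.33 over the 17. Of the 37 tested prostanoid and leukotriene genes, Pla2g4a (2.45, adjusted p = 0.0226), Cbr3, Ptgr1, Ptgfr and Lta4h were more positive in stroma and none was called more negative.

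Within tumor, Ptgs2 varied over 3.69 log2 units, and 433 of 25474 genes followed it at an adjusted p under 0.05 (1.7%), 109 positively (0.428%) and 324 negatively (1.27%). The number was 0 without the filter on dim genes and 174 with the deposited series matrix. Inflammatory, cAMP-responsive and immediate early lists stood there with higher medians than in stroma. Neutrophil chemokines and receptors had a median rho of 0.76 in tumor and 0.20 in stroma. For interleukin-6 family and TNF cytokines the medians were 0.73 and -0.12. They were 0.71 and -0.41 for cAMP-responsive genes and 0.67 and -0.05 for immediate early genes, lists that share members. All genes had medians of -0.08 and -0.14. The numbers that passed in tumor were 2 of 7, 3 of 11, 2 of 11 and 3 of 18. All 7 neutrophil chemokine genes, all 14 NF-kB feedback genes and all 18 immediate early genes had a rho above 0 in tumor, as did 43.3% of all genes tested there, and so did all 18 ribosomal proteins, all 16 hypoxia and glycolysis genes and all 10 interleukin-1 genes. Il1b and Il6 had rho of 0.76 and 0.74 in tumor (adjusted p = 0.0502 and 0.0602) and of 0.17 and 0.01 in stroma. The test of the difference between the tissues was made for the classes and not for rho.

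**Figure D5:**
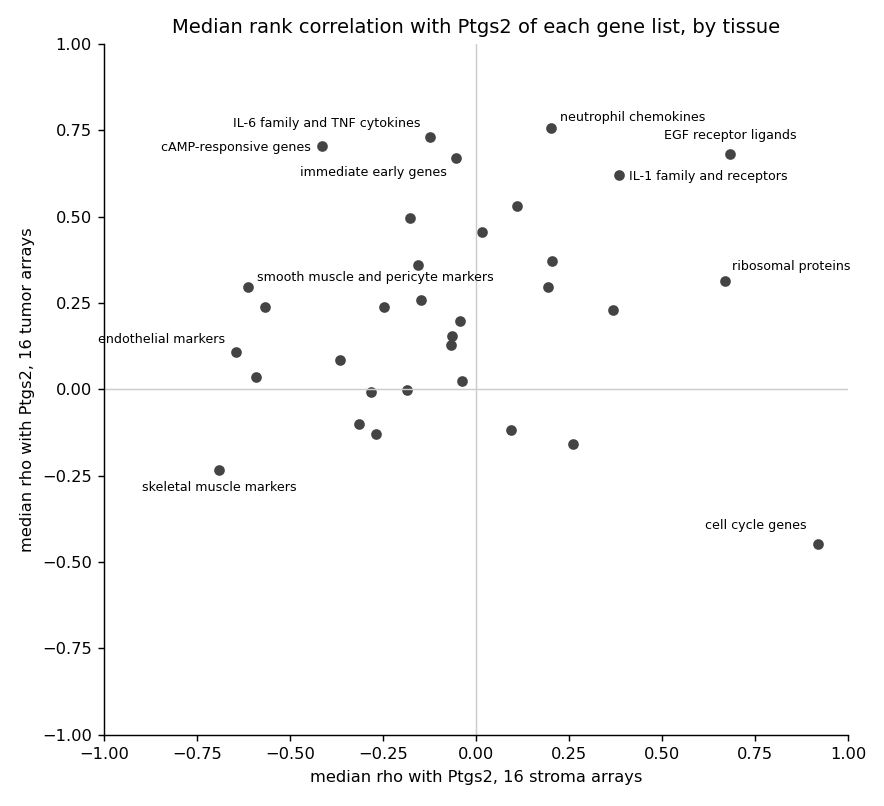
Median rank correlation with Ptgs2 of each gene list over 16 stroma arrays (x axis) and 16 tumor arrays (y axis), 1 point a list. Cell cycle genes lie at 0.92 in stroma and -0.45 in tumor, cAMP-responsive genes at -0.41 and 0.71, and ligands of the EGF receptor at 0.68 in both.

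Within host genotypes rho rests on 8 arrays, and 0 genes passed in either after adjustment, with 5301 in wild-type and 2606 in knockout stroma at an unadjusted permutation p under 0.05. The leading genes were named for their rho over these same 16 arrays, which favours the same direction within each genotype. Nek2 had rho of 0.90 in wild-type and 0.88 in knockout stroma, Il6st -0.83 and -0.95, and Pold1 0.90 and 0.81. Others were weaker among knockout arrays, such as Plaur (0.83 and 0.36), Pla2g4a (0.86 and 0.36), Myc (0.88 and 0.17) and Fosl1 (0.86 and 0.29). The median rho of cell cycle genes was 0.83 and 0.64, of endothelial markers -0.62 and -0.26 and of skeletal muscle markers -0.69 and -0.05. Whether rho differs between the genotypes was not tested.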

How the data were processed

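RNA of 16 stroma and 16 tumor samples was measured on one-colour Agilent arrays with the dye Cy3, per the labels' protocols. The authors deposited scanner files of linear intensity per spot (62976 spots, 59305 not controls), made, per the submitters' processing notes, by version 10.7.3.1 of Agilent Feature Extraction. They also deposited a series matrix of log2 values, which lay within 0.01 of the scaling used here for 99.5% of stroma and 91.3% of tumor values. Each array's log2 processed intensity was set relative to its 75th percentile. Flagged spots were left out, spots of a probe were averaged, and each gene was read from the probe with the highest mean in stroma. Of 56605 probes 32994 had a RefSeq symbol and the rest kept the name in the file. Genes well above background on at least 5 of 16 stroma arrays, with at most 2 missing values, were tested. Signal on the 5 arrays of a single class was enough for this.

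Classes were compared with limma 3.58.1 (lmFit, eBayes) in R 4.3.3, with Benjamini-Hochberg adjustment over all genes tested. Correlations used 100000 permutations over 16 arrays and exact permutations over 8 (Python 3.11.15, scipy 1.17.1). The named genes were those of the prostanoid and leukotriene lists, the 10 largest called rises and falls with a symbol and with signal on every array of the brighter class, the 10 highest and 5 lowest rho, up to 4 genes of each list by p, and sex-linked genes. One gene that this rule names is not reported here. The members and lists were chosen with earlier results of these data known. Alternatives were other scalings, filters, class sizes, covariates, blocks and arrays left out. Those that left out wild-type stroma 9 and knockout stroma 95 or the 3 arrays at odds with their sex label, that used Ptgs2 as a number with genotype or within a genotype, and the median spot signal in normexp were chosen after seeing the data. The fits were tested on simulated data.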

Additional observations from a re-analysis of the deposited data

Results flagged for a closer look

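Among 148 groups of arrays looked at for 72 named genes, 8 had 1 array far from the others of its class, and chance alone flags about 1 in 20 such groups. In the low class wild-type stroma 9 stood apart for Ptgs1 (-1.11), Polq (-4.82), Hbegf (0.58) and Fosl1 (-7.56), and knockout stroma 95 for Crhbp (-5.37) and Myc (1.64). In the high class wild-type stroma 1 stood apart for Rhox5 (5.50) and wild-type stroma 45 for Mmp9 (-1.64). All are levels in log2 relative to the 75th percentile of the array.

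Over all genes the difference between the classes differed between stroma and tumor for 16%. Many of the 72 genes were named for a large difference or rho in stroma, which favours a larger difference there. The classes were also cut from stroma Ptgs2, and tumor Ptgs2 differed between them by 0.36, against at least 4.98 in stroma. A gene that follows Ptgs2 alike in both tissues, such as Ereg (rho 0.96 and 0.94), can therefore be called here. These values do not show that a gene follows Ptgs2 differently in tumor. For 41 of the 72 genes the difference between the classes was not the same in stroma as in the tumors of the same numbers (limma, adjusted p from 0.000657 to 0.0483). The values that follow are the high minus low difference in stroma minus that in tumor. In the prostanoid and leukotriene pathways it was 2.45 for Pla2g4a, 2.15 for Cbr3, 2.10 for Ptgr1, 2.42 for Ptgfr and 1.15 for Lta4h. Among the largest rises it was 6.73 for Rhox5, 6.38 for Crabp1, 5.77 for Dnajc22, 5.83 for Gm10439, 5.61 for Car12, 5.65 for Ereg, 4.87 for Crhbp, 5.68 for Lrp2 and 5.72 for Gap43. Among the largest falls it was -5.72 for Igfn1, -6.09 for Nctc1 and -6.11 for Ldb3. Among the genes that followed Ptgs2 most closely it was 3.96 for Nek2, 2.82 for Rnf24, 4.13 for Spdl1, 3.08 for Polq, 4.13 for Dbf4, 2.10 for Pold1, 2.63 for S100a3 and 3.42 for Dtnb, and it was -1.76 for Il6st, -1.83 for Epas1 and -0.97 for Mindy1. For signalling genes it was 3.07 for Il1rap, 4.64 for Areg, 4.89 for Fosl1, 2.35 for Myc, -3.23 for Pde4b and 2.81 for Plaur. For matrix and cell cycle genes it was 4.60 for Mmp13, 2.79 for Mmp9, 1.86 for Vim, 2.92 for Aurka and 4.09 for Cdk1. For vessel and muscle markers it was -1.32 for Pecam1 and -3.12 for Acta2.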

How the results depend on the processing

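The number of genes called between the classes (10697) was 6078 with the 4 highest against the 4 lowest arrays, 2817 without wild-type stroma 65 and 82, 3087 with Ptgs2 as a number in wild-type stroma alone and 0 in knockout stroma alone, and 6432 to 12612 with 1 array left out. The share of called genes that were higher was 49.7%, 52.7% after normexp and quantile scaling, 62.8% with 4 against 4 arrays, 75.4% without wild-type stroma 65 and 82 and 73.8% in wild-type stroma alone. The number of genes with a called rho in stroma (11365) was 3576 without wild-type stroma 65 and 82, 0 in either genotype alone, and 8005 to 12054 with 1 array left out. In tumor it (433) was 0 with no filter on dim probes, where 16206 of 45610 had an unadjusted permutation p under 0.05, and 174 with the series matrix. The call between tumors by class of the host (0) was 36 with genotype as a covariate and 0 with 1 array left out, and tumor Ptgs2 differed by -0.13 (without wild-type tumor 82) to 0.80 (without wild-type tumor 68). The number that differed between stroma and tumor (4458) was 2793 without wild-type stroma 82, 2809 without 65 and 7932 without wild-type stroma 1. It was 4850 with the replicate number as a random block. The labels do not say that a number marks 1 host, and not every pair correlated over 0.1, so the numbers were not used as a block in the result reported: over 15 stroma and tumor arrays of the same number the correlation of deviations was -0.05 to 0.40 with a median of 0.15, 10 were over 0.1, and 3 correlated best with their own number. Of 1264 values of 72 genes under other settings 1026 kept their direction and side of the threshold. Another 216 no longer passed, 6 newly passed and 16 changed sign. Of 720 with 1 array left out 610, 105, 2 and 3 did. The pooled numbers hide unlike settings. For the 72 genes they were 62, 7, 1 and 2 with Ptgs2 as a number over 16 arrays and genotype as a covariate. They were 44, 27, 0 and 1 without wild-type stroma 65 and 82. With Ptgs2 as a number they were 42, 29, 0 and 1 in wild-type stroma alone. In knockout stroma alone, where 0 genes passed, they were 3, 65, 0 and 4. Genes that changed sign had not passed, except Ptgir. Ptges was 0.028 with normexp, 1.88 as the mean of all probes, 0.053 with 4 against 4 arrays, 0.080 with array weights, 0.16 without wild-type stroma 9 and knockout stroma 95, and -0.16 to 0.072 with 1 array left out, above 0 without wild-type stroma 68, wild-type stroma 9 or knockout stroma 95. Ptger4 was 0.70 with genotype as a covariate and, per unit of Ptgs2, 0.011 over 16 arrays, 0.068 with genotype, 0.031 in wild-type and 0.23 in knockout stroma. Ptger2 was 0.21 with genotype as a covariate, 0.0055 per unit of Ptgs2 with genotype and 0.23 in knockout stroma, where Hpgd was 0.46 and Ptgir 0.12. Eif2s3y was -0.011 without wild-type stroma 65 and 82. The causes were not tested. The mean of all Ptgs2 probes was not run, because there is 1 probe. Signal over background limits the dim genes, and 5 arrays a class limit all of them.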
